A study of Temnothorax americanus and Temnothorax ambiguus and Temnothorax curvispinosus with 48 samples.

Results

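Temnothorax americanus is an obligate slavemaking ant whose workers raid nests of related Temnothorax hosts and carry off brood that later works for the slavemaker colony. Its 8 libraries, of 48 libraries from 6 species in the whole series, were chosen by species from the sample labels, and they hold RNA from whole bodies in 2 states. The 4 raiding libraries (DR, labelled as taken during a raid) hold infertile workers caught while fighting at a nest of T. longispinosus in the raiding season, and the 4 non-raiding libraries (BR, labelled as before a raid) hold infertile workers taken in autumn, once the season had ended. Each library pooled 6 workers, 2 from each of 3 colonies, and the same colonies were pooled in both states, but no label says which libraries share colonies. Neither group carried a transgene or a drug, and both were held at the same temperature and light cycle before sampling. State and season therefore cannot be told apart in any value given here, and in a whole body neither can fewer cells of a type and less RNA per cell.

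A raid in this species starts with scouts that search for a host nest and recruit nestmates, and the raiders use glandular secretions in fights with host defenders. Outside the season the same class of worker stays in the nest and is fed by its enslaved host workers. The proteins behind these habits are of broad kinds known in all insects. Trehalose is the sugar of insect blood, cuticular hydrocarbons made from long-chain fatty acids carry the odour by which ants tell nestmates from strangers, and the fat body stores lipid and makes many blood and immune proteins.

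Reads were counted on contigs, the assembled pieces of transcripts, and several contigs can be parts or copies of 1 gene. The table held 54054 contigs, of which 40389 had enough counts to be tested. Library totals ran from 6473400 counts in BR_436 to 25442850 in BR_434 in the non-raiding state, and from 17520403 in DR_440 to 33003349 in DR_439 in the raiding state. A level of 1 CPM (counts-per-million, with totals scaled by TMM) is thus 6.47 to 33.0 counts. The study set DR_439 aside as outlying, and it took no part in the fit, so raiding is represented by DR_437, DR_438 and DR_440 and DR_439 is given as a check. The biological coefficient of variation between libraries of 1 state was 0.492. The authors assembled libraries in pairs, of 1 state or of both. Names of contigs from a single pair hold 1 library number and codes that no source explains. The codes are R and smadr for BR_433 and BR_435, and T and smifors for DR_437 and DR_440. They can be read as the states swapped against the sample labels. Every direction given here follows the labels and would turn under the other reading, and no value here bears on which of them holds, since both put the same libraries together. The directions that the paper prints for the desaturase, painless and MYG1 in this species run as they do here. The authors thus assigned the states as the labels do, which is no separate check of the labels. Protein names came from the match that the authors deposited for contigs they had called on these libraries, 477 of 955 contigs, so the share of named contigs past the threshold was set by that choice. The 955 contigs include 230 of the 325 changed contigs. Of the 436 contigs with a match that were tested, 178 passed the threshold, 82 of them higher in raiding and 96 lower. The calls in each list below are to be read beside that share, not beside the share of all tested contigs. Signs and medians of a list come from the same chosen contigs, and those over all contigs with a match are not given here.

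In the fit of 3 raiding against 4 non-raiding libraries, 325 contigs (0.805% of those tested) passed an adjusted p of 0.05, 170 of them higher in raiding (0.421%) and 155 lower (0.384%). The balance depended on the test and the libraries, with 411 higher and 695 lower by edgeR's likelihood ratio test, 760 and 1081 by DESeq2, and 380 and 527 with all 8 libraries in the fit. The median log2 fold change of all tested contigs was 0.00. At the median, changes were larger on the lower side. The largest single change among called contigs was a rise (log2 fold change 10.3, beside -8.18 for the largest fall). Of the contigs that were higher, the median log2 fold change was 0.79, 119 of 170 changed by less than 2-fold and 17 by more than 4-fold. Of those that were lower, the median was -1.38, 35 of 155 changed by less than 2-fold and 46 by more than 4-fold. The states did not overlap in 13.7% of all tested contigs. They did not overlap in any of the named changed contigs described below, but this is no separate result. It was a condition for naming the largest changes, and the others were taken from contigs past the threshold. A protein was named by the match of 50 higher and 54 lower contigs, while 88 higher and 59 lower contigs had no match.

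**Figure D1:**
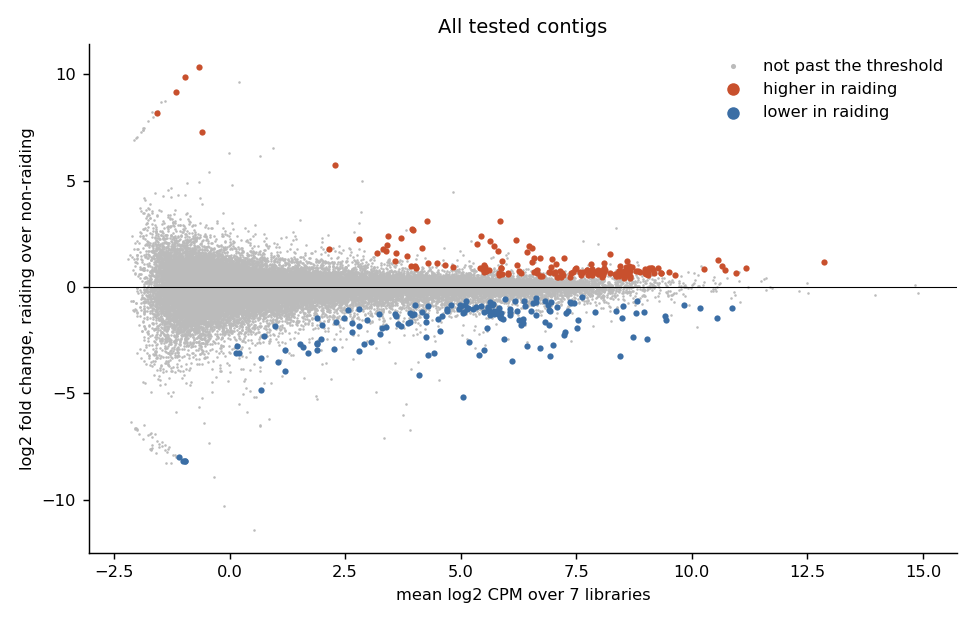
Each point is 1 tested contig, placed by its mean log2 CPM over 7 libraries and by its log2 fold change in raiding over non-raiding workers, with the 170 higher contigs in red and the 155 lower contigs in blue. Many red points lie between 0 and 1 on the vertical axis at high expression. Blue points lie further from 0 at the median, whereas the coloured point furthest from 0 is red.

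The calls depended on single libraries. Without BR_433, BR_434, BR_435 or BR_436 the share of tested contigs called was 0.345%, 0.557%, 0.469% and 0.401%, and without DR_437, DR_438 or DR_440 it was 0.146%, 0.0492% and 0.166%, the last 3 with 2 raiding libraries. With all 8 libraries it was 2.37%, and 320 of the 325 contigs were among those called. All 325 contigs kept the sign of their fold change in each of the 7 fits without a library, while 20 were called in every such fit. Among the contigs named by the rule given with the processing, 14 were called in each of them.

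These 14 were led by Protein FAM45B, whose contig stood at 23.6, 23.1, 24.5 and 19.7 CPM in BR_433 to BR_436 and at 209, 152 and 233 CPM in DR_437, DR_438 and DR_440. The raiding libraries were all far above the non-raiding ones, and DR_439 had 199.7 CPM. The log2 fold change was 3.12 (SE 0.16, adjusted p in edgeR's quasi-likelihood test = 0.00209). A contig matching retinoic acid receptor RXR, the relative of the insect receptor ultraspiracle that pairs with the ecdysone receptor, stood at 1055, 1076, 1013 and 1061 CPM in the non-raiding and at 2347, 2744 and 2440 CPM in the raiding libraries of the fit, with 2143 CPM in DR_439. Its spread within the non-raiding state was small beside a log2 fold change of 1.26 (SE 0.08, adjusted p = 0.00538). Alkaline phosphatase (log2 fold change 1.63, SE 0.14) and the serine/threonine/tyrosine-interacting protein, a relative of protein phosphatases without catalytic activity (1.92, SE 0.17), were higher as well. Golgin subfamily A member 5, a coiled-coil protein of the Golgi membrane, was lower, with 221, 177, 214 and 197 CPM in non-raiding and 64.6, 63.2 and 51.5 CPM in raiding libraries (log2 fold change -1.76, SE 0.13, adjusted p = 0.00598). Hexaprenyldihydroxybenzoate methyltransferase, an enzyme of ubiquinone synthesis, averaged 38.6 ± 3.63 CPM in the non-raiding libraries (SD, n = 4) and 7.62 ± 1.78 CPM in the raiding libraries (SD, n = 3), and its log2 fold change was -2.35 (SE 0.19). The sterol and lipid transporter ABCG4, a Mucin-1 contig and 2 ribosomal protein contigs, also among the 14, are described with their groups. The other 4 had no protein match. Contig c5346 rose from 1205 ± 39.3 to 2378 ± 118 CPM and contig_346 of the assembly named for library DR_437 from 21.5 ± 4.61 to 112 ± 19.8 CPM, while contig c35256 fell from 6.91 ± 1.72 to 0.445 ± 0.0488 CPM and contig_3937 of the assembly named for library DR_440 from 197 ± 58.5 to 18.0 ± 4.74 CPM.

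**Figure D2:**
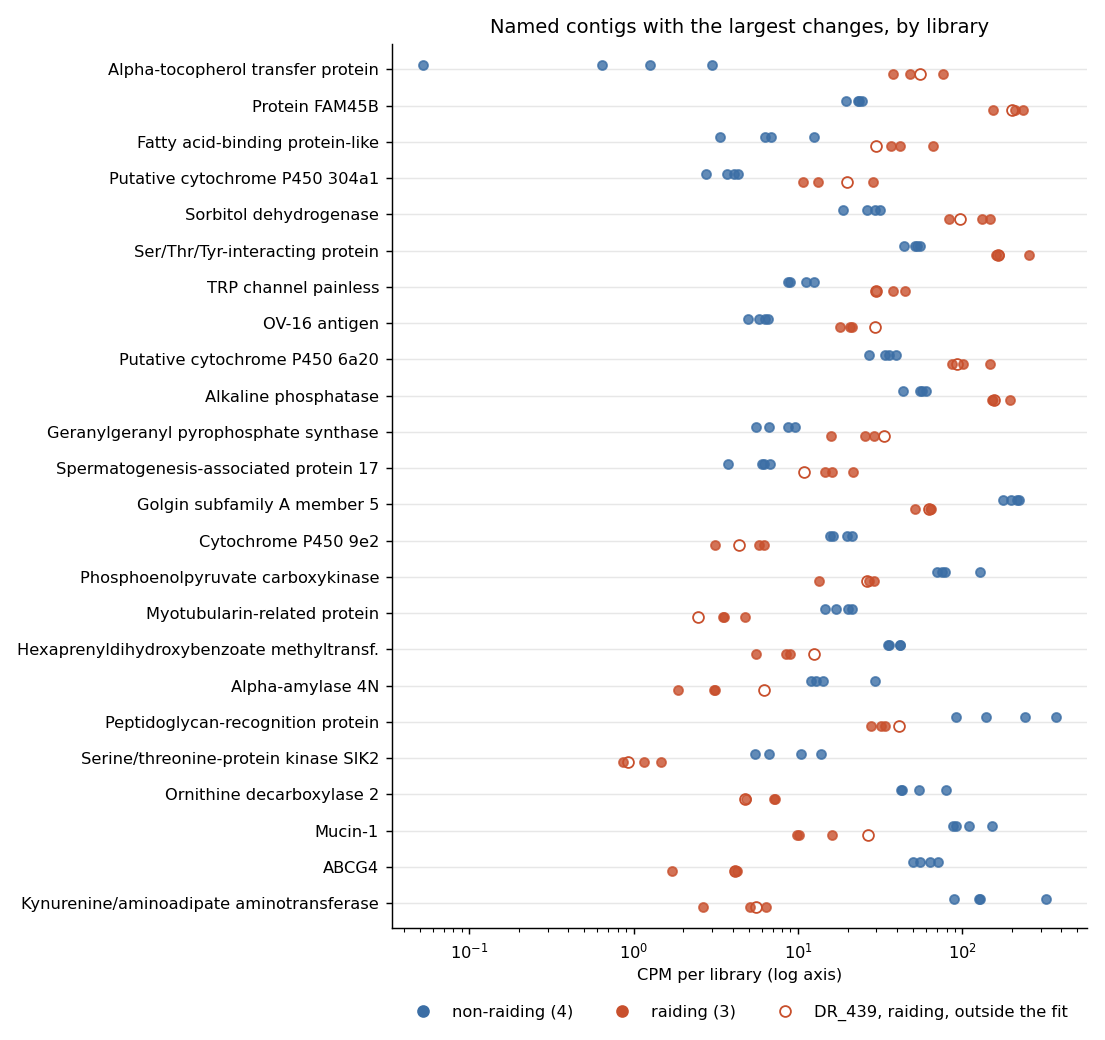
CPM on a log axis in every library for the 12 named contigs with the largest change in each direction, with blue points for the 4 non-raiding libraries, filled red points for the 3 raiding libraries of the fit and open red circles for DR_439. Blue and filled red points do not overlap in any row, since only contigs without overlap were taken. The open circle lies near the filled red points in most rows, as for Protein FAM45B at 199.7 CPM.

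Sugar metabolism held changes in both directions. Of 18 tested contigs for sugar digestion, transport and use, 10 were lower and 3 higher in raiding, with a list median of -1.14. The digestive enzymes on the list that passed the test were lower. Alpha-amylase 4N, a starch-cleaving enzyme, stood at 29.5, 12.9, 14.2 and 12.1 CPM in non-raiding and at 3.14, 1.86 and 3.08 CPM in raiding libraries (log2 fold change -2.67, SE 0.40, adjusted p = 0.0289), and alpha-glucosidase (-1.50, SE 0.22) and lactase-phlorizin hydrolase (-1.25, SE 0.20) were lower too. BR_433 had the highest amylase level, and the other 3 non-raiding libraries were close to each other. Sugar transporters ERD6-like 6 (-2.68, SE 0.33) and ERD6-like 7 (-1.22, SE 0.19) fell, as did trehalase, which splits trehalose into glucose (-1.14, SE 0.12), L-xylulose reductase (-0.81, SE 0.10), glucose dehydrogenase (-0.99, SE 0.16) and beta-hexosaminidase (-1.12, SE 0.18). Phosphoenolpyruvate carboxykinase, which commits carbon to glucose synthesis, had 70.0, 78.0, 128 and 75.2 CPM in non-raiding and 29.0, 13.4 and 26.9 CPM in raiding libraries (-1.93, SE 0.32, adjusted p = 0.0460).

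The 3 sugar contigs that rose include both enzymes of the polyol route. Sorbitol dehydrogenase, which turns sorbitol into fructose, stood at 29.3, 31.5, 26.2 and 18.8 CPM in non-raiding and at 132, 146 and 82.8 CPM in raiding libraries (log2 fold change 2.18, SE 0.23, adjusted p = 0.0104). Aldose reductase, which makes sorbitol from glucose, stood at 241, 142, 197 and 185 CPM against 612, 563 and 506 CPM (1.55, SE 0.17, adjusted p = 0.0104). The lowest raiding library was well above the highest non-raiding library for both. The third was protein phosphatase 1 regulatory subunit 3C, which targets the phosphatase to glycogen (1.38, SE 0.20). Without DR_437, DR_438 or DR_440, the list had 0, 0 and 2 higher and 1, 0 and 1 lower calls, and without BR_433 to BR_436 it had 2, 3, 3 and 2 higher and 3, 3, 5 and 4 lower calls. Without DR_438 the adjusted p was 0.0627 for sorbitol dehydrogenase and for trehalase, 0.0657 for aldose reductase and 0.141 for the amylase.

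Lipid carriers, stores and lipases changed in both directions. Of 16 tested contigs 5 were higher and 3 lower, with a list median of -0.07. The contig with the largest rise matches the alpha-tocopherol transfer protein, which binds vitamin E in mammals, and had 1.26, 0.643, 0.0527 and 2.98 CPM in the non-raiding libraries and 37.8, 48.3 and 75.9 CPM in the raiding libraries (log2 fold change 5.73, SE 0.77, adjusted p = 0.0204), with 55.6 CPM in DR_439. A pair of other contigs with this match rose by less (1.97, SE 0.22 and 0.76, SE 0.09), and 2 of the remaining matches to this protein stood at 2.64 and -1.27 without passing. The fatty acid-binding protein-like contig, of a family that carries fatty acids in the cell, stood at 3.38, 12.5, 6.32 and 6.85 CPM against 66.4, 36.7 and 41.5 CPM (2.72, SE 0.42, adjusted p = 0.0325), and lipid storage droplets surface-binding protein 2, a coat protein of fat droplets, at a mean of 169 ± 9.23 CPM (SD, n = 4) against 293 ± 37.6 (SD, n = 3; log2 fold change 0.79, SE 0.11). Those that fell were group 3 secretory phospholipase A2, a venom enzyme in bees (-0.95, SE 0.12), lipid phosphate phosphohydrolase (-1.17, SE 0.15) and apolipoprotein D, a lipocalin that binds small lipids (-0.90, SE 0.14). The phospholipase is also the only tested member of the venom list. No call of this list was left without DR_437, DR_438 or DR_440, and without BR_433 to BR_436 there were 2, 3, 5 and 3 higher and 1, 2, 1 and 2 lower calls.

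Among contigs for the synthesis of long-chain fatty acids and cuticular hydrocarbons, 10 of 13 had negative fold changes, with a median of -1.12, but 2 passed the test as lower and 1 as higher. An elongase of very long chain fatty acids stood at 337, 271, 424 and 346 CPM in non-raiding and at 157, 133 and 164 CPM in raiding libraries (log2 fold change -1.19, SE 0.16, adjusted p = 0.0208), and fatty acyl-CoA reductase 1, which makes fatty alcohols, at 185, 131, 187 and 163 CPM against 89.5, 59.8 and 86.8 CPM (-1.08, SE 0.18, adjusted p = 0.0480). The acyl-CoA Delta(11) desaturases, which set double bonds in fatty acids, had positive fold changes. One contig rose from 46.6, 47.9, 39.7 and 46.2 CPM to 85.9, 75.7 and 91.1 CPM (0.90, SE 0.11, adjusted p = 0.0131). The other had 194, 221, 59.2 and 133 CPM in non-raiding and 1003, 483 and 384 CPM in raiding libraries, a larger difference with a larger spread that did not pass the test (2.04, SE 0.48, adjusted p = 0.124). The states of that contig did not overlap either. Of the 7 fits without a library, the first desaturase was called in 4, the elongase in 2 and the reductase in 1, with adjusted p up to 0.0749, 0.100 and 0.154. Without DR_437, DR_438 or DR_440 the list had no call, and without BR_433 to BR_436 it had 1 higher call each and 0, 3, 1 and 0 lower calls.

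Most listed contigs for the breakdown of amino acids had negative fold changes, although few passed the test. Of 12 tested, 11 had negative fold changes, with a median of -1.50, and 3 were called lower and 1 higher. Kynurenine/alpha-aminoadipate aminotransferase, an enzyme of tryptophan and lysine breakdown, stood at 127, 324, 126 and 89.3 CPM in non-raiding and at 5.09, 6.36 and 2.63 CPM in raiding libraries (log2 fold change -5.14, SE 0.58, adjusted p = 0.0111). BR_434 was highest, but the lowest non-raiding library was still far above every raiding library. Ornithine decarboxylase 2, of the family that starts polyamine synthesis, had 54.7, 79.6, 42.8 and 42.3 CPM against 4.81, 7.18 and 7.20 CPM (-3.11, SE 0.29, adjusted p = 0.00649). Cytosolic branched-chain-amino-acid aminotransferase was lower (-0.92, SE 0.15) and a probable maleylacetoacetate isomerase, an enzyme late in tyrosine breakdown, was higher (1.25, SE 0.19). The step before the isomerase, homogentisate 1,2-dioxygenase, was represented by 3 contigs at -2.44, -2.25 and -2.03, none of which passed (adjusted p = 0.0695, 0.190 and 0.266). Without DR_437, DR_438 or DR_440 the list had 0 higher calls and 1, 0 and 1 lower calls, and without BR_433 to BR_436 it had 0, 0, 1 and 0 higher and 2, 4, 2 and 2 lower calls, which need not be the same contigs. Ornithine decarboxylase was at an adjusted p of 0.0613 without DR_438 and the kynurenine enzyme at 0.0670 without DR_437.

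The membrane transporter list had no member with a positive fold change. All 25 tested contigs were below 0, with a median of -1.33. The test was passed by 11, a share near the 178 of 436 over all tested contigs with a match. ABCG4 fell the most, to between 1.71 and 4.25 CPM in the 3 raiding libraries, with 4.13 CPM in DR_439 and 49.7 to 70.9 CPM in the non-raiding libraries, and was called in all 7 fits without a library. Among the carriers for organic anions and drugs, solute carrier organic anion transporter 4C1 stood at 84.7, 81.0, 70.8 and 69.2 CPM against 34.7, 32.8 and 28.8 CPM (log2 fold change -1.25, SE 0.12, adjusted p = 0.00721), and 2 contigs of a multidrug resistance-associated protein fell (-1.13, SE 0.13 and -1.45, SE 0.20). DR_439, at 52.4 CPM, was nearer to the non-raiding libraries for the 4C1 contig. Carriers of sulfate (-1.51), monocarboxylates (-1.10), organic cations (-1.33), amino acids (-0.83), magnesium (solute carrier family 41 member 2, -1.34) and those named solute carrier family 46 member 3 (-0.93) and synaptic vesicle glycoprotein 2B (-1.69) fell too. Without DR_437, DR_438 or DR_440, the number called was 3, 1 and 2, and without BR_433 to BR_436 it was 6, 8, 8 and 6. The 4C1 contig had an adjusted p of 0.0627 without DR_438.

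Most tested contigs on the list of ribosomal proteins and translation were higher in raiding. The list holds only contigs the authors had called, so unchanged ribosomal contigs would not be on it. Of 14 tested, 13 were above 0, with a median of 0.93, and 10 were called higher and 0 lower. Another 2 of the list were not tested. The 8 called 40S contigs, parts of the small ribosomal subunit, had log2 fold changes from 0.80 (S25) to 0.94 (S2), and the 60S contig L18a-like, of the large subunit, had 0.82. The contig for 40S ribosomal protein SA stood at 281, 303, 285 and 292 CPM in BR_433 to BR_436 and at 564, 553 and 552 CPM in raiding libraries (log2 fold change 0.94, SE 0.07, adjusted p = 0.00598), with 476 CPM in DR_439. S24 stood at 306, 316, 325 and 323 CPM against 580, 584 and 659 CPM (0.94, SE 0.08, adjusted p = 0.00598). For both, libraries of 1 state were closer to each other than to any library of the other state. Mitochondrial elongation factor Ts rose with them (1.11, SE 0.13). The exceptions on the list were translation initiation factor IF-2, at -1.19 (adjusted p = 0.0542), and 60S L38, at 6.31 with an adjusted p of 0.206. The number called was 7, 10, 9 and 9 without BR_433 to BR_436 and 4, 2 and 6 without DR_437, DR_438 and DR_440, with 1 lower call without BR_436, and SA and S24 were called throughout.

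**Figure D3:**
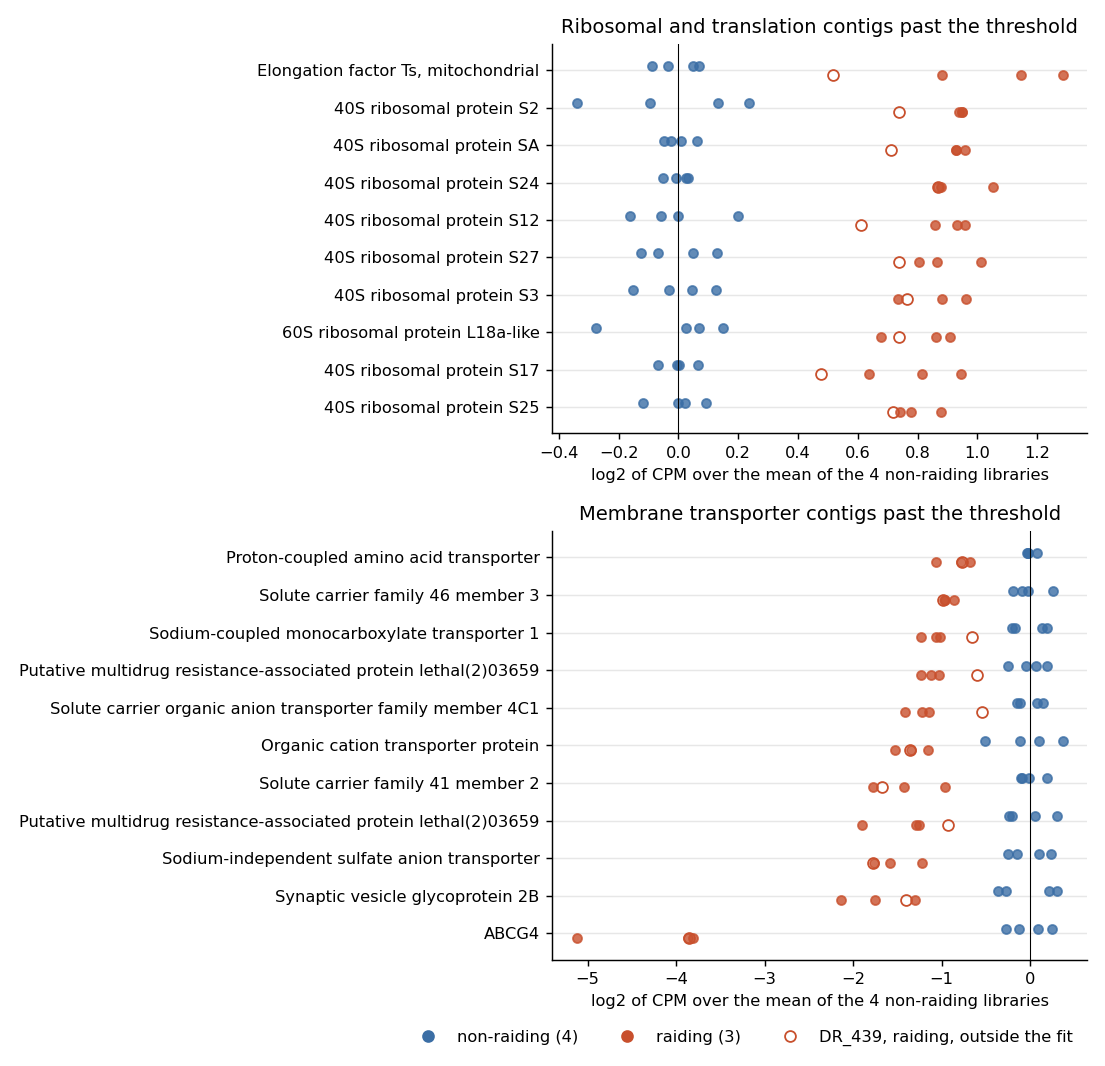
For the 10 ribosomal and translation contigs (upper panel) and the 11 transporter contigs (lower panel) past the threshold, log2 of the CPM of each library over the mean of the 4 non-raiding libraries, with blue points for non-raiding, filled red for raiding and open red for DR_439. The ribosomal rows line up at a similar distance from 0 (log2 fold changes of 0.80 to 0.94 for the 40S contigs), and ABCG4 stands far to the left of the other transporters.

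Listed contigs for mucin and cuticle were all below 0. Of 6 tested, 5 were lower, with a median of -2.42. A set of 4 of these match Mucin-1, a heavily glycosylated surface protein in mammals, and may be parts of 1 transcript. The Mucin-1 contig of smallest p stood at 249, 352, 346 and 201 CPM in non-raiding and at 42.3, 50.6 and 39.9 CPM in raiding libraries (log2 fold change -2.70, SE 0.23, adjusted p = 0.00598), and the other 3 at -3.20, -2.97 and -2.13. Protein yellow, of a family needed for dark cuticle pigment in Drosophila, fell (-0.84, SE 0.13), while flexible cuticle protein 12 (-0.80, adjusted p = 0.0591) did not pass. Without BR_433 to BR_436 the list had 4 lower calls each, and without DR_437, DR_438 and DR_440 it had 2, 1 and 3.

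Few protease and immune contigs passed the test, and those that did were lower. Of 14 tested protease and inhibitor contigs, 12 were below 0, with a median of -1.14, and 3 were called lower and 0 higher. Aminopeptidase N, a membrane enzyme of the insect midgut, stood at 115, 75.3, 85.9 and 105 CPM against 38.9, 33.5 and 28.6 CPM (log2 fold change -1.50, SE 0.18, adjusted p = 0.0133). Matrix metalloproteinase-14 (-1.10, SE 0.13) and serine protease gd, which in Drosophila acts in embryonic patterning (-1.28, SE 0.21), were the others. A Chymotrypsin-1 contig had a positive fold change of 4.49 with an adjusted p of 0.162. The immune list had a median of -2.75, with all 7 contigs below 0, and only the peptidoglycan-recognition protein, a receptor for bacterial cell walls, passed, at 241, 370, 140 and 91.9 CPM against 33.8, 27.7 and 32.2 CPM (-2.75, SE 0.46, adjusted p = 0.0456). Its non-raiding libraries differed among themselves by far more than the raiding ones. Protein toll (-0.70, adjusted p = 0.0533) and the beta-1,3-glucan-binding protein (-1.76, adjusted p = 0.103) did not pass. Without DR_437, DR_438 or DR_440 neither list had a call, and without BR_433 to BR_436 there were 2 protease calls each and 0, 1, 0 and 1 immune calls, all lower.

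Hymenoptaecin, an antimicrobial peptide of ants and bees, showed how far 1 library could go. Its more abundant contig stood at 192, 1437, 36.2 and 1.19 CPM in BR_433 to BR_436 and at 17.9, 0.822 and 0.286 CPM in the raiding libraries, with 1.56 CPM in DR_439. The states overlapped, and the log2 fold change of -5.99 (SE 2.30) had an adjusted p of 0.378. The second hymenoptaecin contig had 16.6, 137, 2.69 and 0.298 CPM against 1.24, 0.00 and 0.114 CPM (-6.20, SE 2.04, adjusted p = 0.281). Both were highest in BR_434.

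Cytochrome P450 enzymes, which oxidise hormones, lipids and toxins, changed in both directions. Of 9 tested, 2 were higher and 2 lower, with a median of -0.98. P450 6a20 stood at 26.9, 39.4, 35.9 and 33.8 CPM against 86.6, 101 and 148 CPM (log2 fold change 1.71, SE 0.20, adjusted p = 0.0131), and P450 304a1 at 4.08, 2.77, 3.69 and 4.32 CPM against 10.7, 13.2 and 28.7 CPM (2.25, SE 0.36, adjusted p = 0.0382). P450 6k1 (-0.98, SE 0.10) and P450 9e2 (-1.86, SE 0.27) were lower. The call of 304a1 was lost without any 1 of the 7 libraries, with an adjusted p of up to 0.112, and without DR_438 none of the 4 was called. Among esterase and redox contigs 3 of 10 were higher and 1 lower, with a median of -0.02. The lysosomal thiol reductase GILT, which reduces disulfide bonds in lysosomes, rose from 84.1, 71.5, 100 and 88.3 CPM to 204, 214 and 221 CPM (1.31, SE 0.12, adjusted p = 0.00615), phospholipid hydroperoxide glutathione peroxidase, which detoxifies lipid peroxides, by 0.71 (SE 0.08) and retinol dehydrogenase 11 by 1.44 (SE 0.21). Sphingomyelin phosphodiesterase fell, from 43.1 to 51.8 CPM over the non-raiding libraries to 23.5 to 24.0 CPM over the raiding ones. None of these was called without DR_438, where GILT had an adjusted p of 0.0591.

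Channels, receptors and regulators of transcription changed in small numbers. Of 9 tested contigs for neural signalling 3 were higher and 0 lower, with a median of 0.72. The cation channel painless, needed in Drosophila larvae for the response to heat and touch that causes pain, stood at 12.6, 8.92, 8.74 and 11.2 CPM in non-raiding and at 44.4, 38.0 and 29.7 CPM in raiding libraries (log2 fold change 1.86, SE 0.19, adjusted p = 0.00985), with 29.9 CPM in DR_439. All 4 raiding libraries were above the highest non-raiding library. The call was lost without DR_438 (adjusted p = 0.0627) and without 1 other library. A kainate-type glutamate receptor (0.72, SE 0.10, adjusted p = 0.0269) and a calcium channel alpha-2/delta subunit (1.01, SE 0.17, adjusted p = 0.0482), both parts of synaptic or membrane signalling, were higher too, each called in 1 of the 7 fits without a library. The transcription factor list had 2 higher and 1 lower of 9, with a median of -0.88. Beside RXR, the hepatic leukemia factor-like contig rose (0.71, SE 0.09, adjusted p = 0.0191, 0.0965 without DR_440) and the Krueppel-like contig, a zinc-finger protein, fell (-1.30, SE 0.14, adjusted p = 0.0105, 0.0620 without DR_437).

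Odorant and takeout-like proteins had 1 higher and 0 lower calls among 7 tested, with a median of -1.30. The called contig matches a circadian clock-controlled protein, of the takeout family of small carriers, and stood at 66.1, 57.7, 62.0 and 80.4 CPM against 152, 123 and 179 CPM (log2 fold change 1.19, SE 0.16, adjusted p = 0.0199, 0.0820 without DR_437). A more abundant contig with the same match had a negative fold change, from 1196, 1072, 983 and 1262 CPM to 521, 572 and 279 CPM, without passing (-1.30, SE 0.24, adjusted p = 0.0612). Odorant receptor 67a was low in every library (-2.53, SE 0.46, adjusted p = 0.0588). A pair of contigs for titin, the giant elastic protein of the muscle sarcomere, rose by 0.99 (SE 0.10) and 0.94 (SE 0.11), and the larger of the 2 had 344, 273, 285 and 278 CPM in non-raiding and 570, 594 and 599 CPM in raiding libraries. The muscle list of 4 had 2 higher and 1 lower and a median of 0.97. Neither titin contig was called without DR_438 (adjusted p = 0.0627 and 0.0797). For nucleotides, purine nucleoside phosphorylase, which splits purine nucleosides, fell (-1.53, SE 0.18) and flap endonuclease 1-B, a DNA replication and repair enzyme, rose (0.70, SE 0.10), of 5 tested with a median of -0.78. MYG1 did not pass (-1.63, SE 0.32, adjusted p = 0.0806). No contig with a protein match was on the yolk and ovary list. Matches exist only for contigs the authors had called, so this does not show that such transcripts were absent. Of the transposable element list 0 of 2 tested passed (transposase -1.58, adjusted p = 0.100, and a Lian-Aa1 retrotransposon 2.68, adjusted p = 0.340).

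Several named contigs outside these lists passed as well. OV-16 antigen, of the phosphatidylethanolamine-binding family, rose from 4.94, 6.31, 5.79 and 6.55 CPM to 18.1, 21.1 and 20.8 CPM (log2 fold change 1.77, SE 0.16, adjusted p = 0.00615, 0.0613 without DR_438). Geranylgeranyl pyrophosphate synthase, which makes isoprenoid chains, rose (1.62, SE 0.27, adjusted p = 0.0416), as did spermatogenesis-associated protein 17 (1.62, SE 0.25, adjusted p = 0.0325), both called in 0 of the 7 fits without a library. A myotubularin-related protein, of a family of lipid phosphatases, fell (-2.22, SE 0.21, adjusted p = 0.00715, 0.0627 without DR_438), and so did the kinase SIK2 (-2.96, SE 0.41, adjusted p = 0.0229, 0.127 without DR_438).

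**Figure D4:**
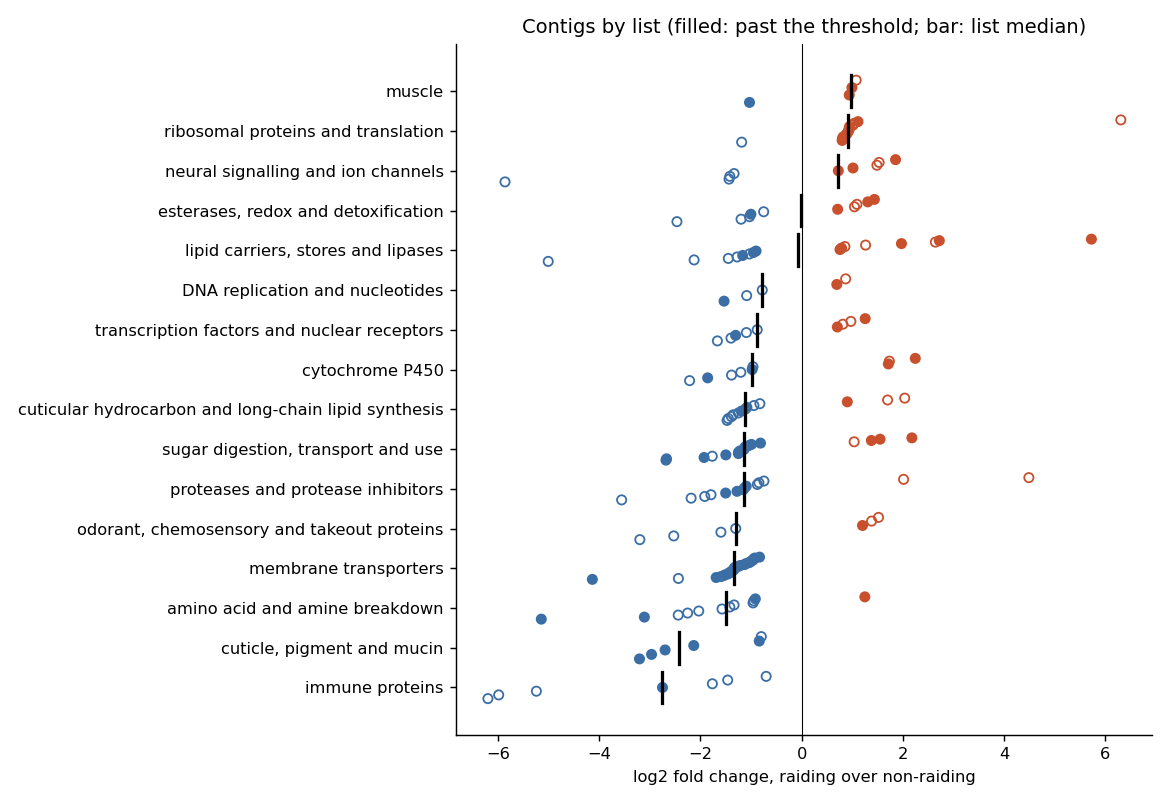
Log2 fold change of each tested contig in the 16 lists with at least 4 tested contigs, red above and blue below 0, filled where the contig passed the threshold, with a black bar at the list median. The transporters, mucins and immune proteins lie below 0 throughout (medians of -1.33, -2.42 and -2.75), while the called ribosomal contigs lie near the list median of 0.93.

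Some contigs had counts in 1 state only. There were 64 contigs at 0 counts in all 4 non-raiding libraries with at least 5 counts in each of the 3 raiding libraries, and 62 of them had counts in DR_439. In the other direction 27 contigs were at 0 in the 3 raiding libraries with at least 5 counts in each non-raiding library, and 17 of them had counts in DR_439. BR_436 is shallow, and without it the numbers were 85 and 75. Contig names moved with this count, since 47 of the 64 were named for library DR_437 and 15 of the 27 for library BR_433, beside 5851 and 4410 of all 54054 contigs. The paper assembled a pair of before-raid replicates, a pair of during-raid replicates and mixed pairs. If replicates were numbered in library order, DR_437 was assembled with DR_438 and BR_433 with BR_434, each a pair of 1 state. The part of the assembly in the count was not tested. In the fit 4 contigs of each kind were called. Contig c14268, without a protein match, had 0 counts in the non-raiding libraries and 201, 186 and 142 in the raiding libraries, with 239 in DR_439, and was at least 181-fold higher in raiding with a floor of 3 counts over the non-raiding group (adjusted p = 0.00985). Few of these contigs had a match that names a protein, and the examples were a putative dihydroxyacetone kinase, with 0 counts in non-raiding and 9, 24 and 20 in the raiding libraries, and a P element transposase, with 0 against 43, 8 and 34. Neither was abundant enough for the test.

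Other contigs belonged to a single library. At least 90% of the CPM of 65 contigs, each with 10 CPM or more, came from 1 library, 28 of them from BR_436 and 18 from DR_439. The 2 Trypsin-7 contigs, which match a digestive protease, were of this kind. The first had 3, 10, 0 and 362 counts in BR_433 to BR_436 and 0 in all 4 raiding libraries, and the second had 160 counts in BR_436 and 0 elsewhere, so that neither was tested. Ejaculatory bulb-specific protein 3, of the chemosensory protein family, had a contig with 176 of its 179 counts in BR_436. Mitochondrial respiratory chain contigs did the same in other libraries. NADH dehydrogenase subunit 5 had 2685 CPM in BR_434 and 0.706 to 11.8 CPM in the other 7 libraries, subunit 4 had 1787 CPM in DR_438 and at most 0.907 CPM elsewhere, and subunit 1 had 10915 counts in DR_438 and 0 in every other library. None of the 3 tested respiratory contigs was called. Of the 325 changed contigs 1 drew over 50% of its summed CPM from a single library.

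DR_439 took no part in the fit and so gives a view of these contigs in a library the calls did not use. It lay on the raiding side of the midpoint between the state medians in 316 of 325 changed contigs (97.2%, Wilson 95% interval 94.8 to 98.5), 165 of 170 higher and 151 of 155 lower, beside 62.4% of all tested contigs. Its level was within the range of the 3 raiding libraries in 139 of the 325. It was within the range of the non-raiding libraries in 1, beside 62.5% of all tested contigs. The called contigs were picked for a difference between the states, so this contrast was in part built in. The share of all tested contigs within the raiding range is not given here. For the median changed contig DR_439 had gone 89.7% of the way from the non-raiding to the raiding median in log2 CPM. Contigs of 1 library are not independent, and the interval covers counting error only. The 9 on the other side of the midpoint include 4 with a protein match. They are solute carrier organic anion transporter 4C1 (52.4 CPM), mitochondrial elongation factor Ts (20.1 CPM, beside 13.2 to 14.7 in non-raiding and 25.9 to 34.3 in raiding libraries), UPF0605 protein (44.3 CPM, beside 33.8 to 40.8 and 58.7 to 66.0) and apolipoprotein D (353 CPM, beside 412 to 524 and 218 to 303). Over all tested contigs, the Spearman correlation of log2 CPM of DR_439 was 0.885 to 0.935 with the raiding and 0.837 to 0.878 with the non-raiding libraries, beside a mean of 0.875 among the 3 raiding libraries and of 0.850 among the non-raiding ones. The highest of these, 0.935, was with DR_440, a library of the fit, beside 0.865 to 0.886 among the 3 raiding libraries. All these correlations are across contigs, which are not independent replicates.

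The same could be asked of each library in the fit, since contigs called without it can be read in it. The left-out library lay on the side of its own state in 97.0%, 92.9%, 92.7% and 94.9% of the contigs called without BR_433, BR_434, BR_435 and BR_436, and in 93.8% and 94.6% of those called without DR_437 and DR_440, and in all 22 called without DR_438. The number of contigs called was smallest without DR_438. The share over all tested contigs was not computed for these libraries, so their percentages have no background beside them.

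**Figure D5:**
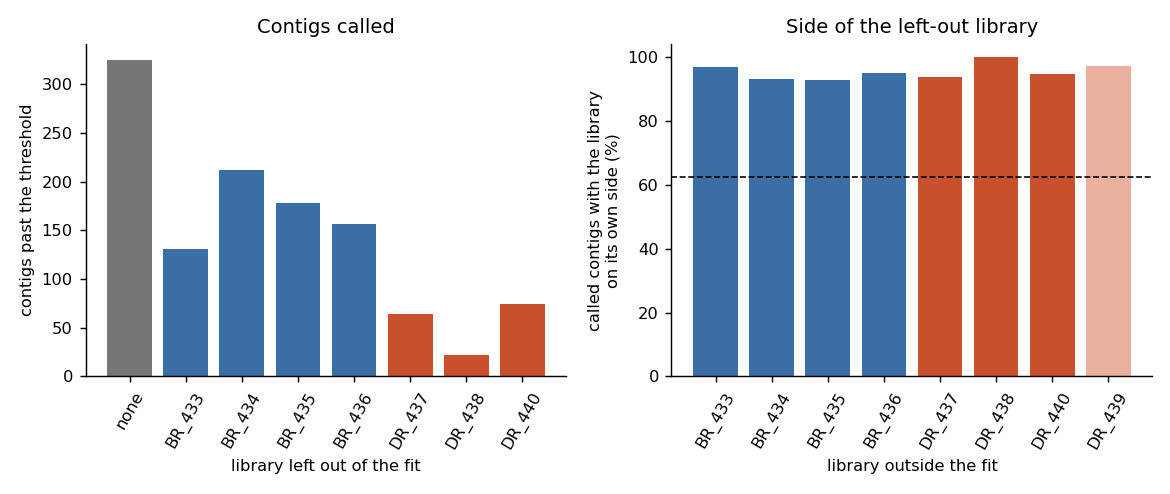
Left, the number of contigs called with 7 libraries (grey, 325) and without each library in turn (blue non-raiding, red raiding), which was 22 without DR_438. Right, the percentage of those contigs in which the library outside the fit lay on the side of its own state, with DR_439 (97.2%, pale red) for the 7-library fit and a dashed line at the 62.4% of all tested contigs in which DR_439 was on the raiding side. The line is the background of DR_439 only and not of the other bars.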

How the data were processed

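Whole-body RNA of T. americanus was sequenced in 8 libraries. The authors trimmed the reads with Trimmomatic, assembled contigs in steps with CLC Workbench and MIRA, mapped with TopHat2 2.0.13 and Bowtie (per the submitters' processing notes) and counted with eXpress, and they deposited raw counts per contig as whole numbers. A second deposited table, limited to contigs the authors called, gave protein matches, and its match e-value (a score) was carried along without a test. Its fold changes, likelihood ratios and p-values, and 8 further per-sample columns of the count table, were not used. No contig sequence was analysed here.

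Raiding (DR_437, DR_438, DR_440) and non-raiding (BR_433 to BR_436) libraries, named by their titles, were compared in R 4.3.3 by the quasi-likelihood test (glmQLFit, glmQLFTest) of edgeR 4.0.16, which loads limma 3.58.1. TMM scaled the totals, filterByExpr kept 40389 contigs at a minimum count of 10, and p-values were adjusted over these by Benjamini and Hochberg, with 0.05 as the threshold. SE is the absolute log2 fold change over the square root of F. Printed CPM use TMM over all 8 libraries, and log2 CPM a prior count of 2. The test was tested on simulated data first. The alternatives were DESeq2 1.42.0, edgeR's likelihood ratio test (filtered and unfiltered), size factors by RLE, the main test unfiltered, a fit of all 8 libraries, fits without each library and, for DR_439, the nearer state mean. Tables and figures were made with pandas 2.3.3, NumPy 2.4.6, SciPy 1.17.1 and matplotlib 3.10.9 under Python 3.11.15.

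Named are matches to the desaturase, Trypsin-7, painless, MYG1 and hymenoptaecin, the 12 largest called changes per direction with a mean of at least 5 CPM and no overlap of states, up to 3 contigs of smallest p per list and 2 contigs without a match per direction. Other list members, and contigs of 1 state or 1 library, were named after their values were seen. The members, the 20 lists (words in the match title) and this rule were chosen with earlier results of these data known. As names exist only for contigs the study called on these samples, lists are described by counts and medians and are no independent evidence. The values of 1 called contig of the muscle list are not reported here.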

Additional observations from a re-analysis of the deposited data

Results flagged for a closer look

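In 156 groups of 4 libraries looked at for the named contigs (DR_439 counted as raiding), 24 held a library that stood apart from the other 3 by Dixon's criterion, which chance does in about 1 group in 20. In the non-raiding state BR_434 stood apart for contig_346 of the assembly named for library DR_437 (28.4 CPM), the kynurenine aminotransferase (324 CPM), both hymenoptaecin contigs (137 and 1437 CPM) and NADH dehydrogenase subunit 5 (2685 CPM). BR_433 stood apart for titin (344 CPM), purine nucleoside phosphorylase (331 CPM) and alpha-amylase 4N (29.5 CPM), BR_435 for phosphoenolpyruvate carboxykinase (128 CPM), and BR_436 for glutathione peroxidase (147 CPM), phospholipase A2 (213 CPM) and the 2 Trypsin-7 contigs (362 and 160 counts).

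In the raiding state DR_440 stood apart for Golgin subfamily A member 5 (51.5 CPM), ABCG4 (1.71 CPM), 40S ribosomal protein S24 (659 CPM) and the serine/threonine/tyrosine-interacting protein (252 CPM). DR_437 did so for alkaline phosphatase (195 CPM), a desaturase contig (1003 CPM) and hymenoptaecin (17.9 CPM), and DR_438 for NADH dehydrogenase subunit 4 (1787 CPM). DR_439 did so for 40S ribosomal protein SA (476 CPM), contig c35256 (1.01 CPM) and cytochrome b (181 CPM). Cytochrome b is also a signal outside the fit, with 5923 counts in DR_439, at most 6 in a non-raiding library and 24, 181 and 27 in the other raiding libraries.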

How the results depend on the processing

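The number of changed contigs was 1106 by the likelihood ratio test, 1115 by that test without the filter, 1841 by DESeq2 and 907 with all 8 libraries, against 325. Of these 411, 466, 760 and 380 were higher and 695, 649, 1081 and 527 lower, so that more were lower than higher under these alternatives. Leaving out 1 library gave 22 to 212 changed, 12 to 124 higher and 10 to 88 lower contigs. RLE size factors and no filter kept each count within 1.5 times. DR_439 was on the raiding side in 89.9%, 91.1% and 90.1% of contigs called by the likelihood ratio test, that test without the filter and DESeq2, in 93.2% to 100% with 1 library left out, and in 97.2% with the nearer state mean. The naming rule covered 76 tested contigs, and other list members named above were outside this count. Of the 76, 1 changed sign under an alternative, NADH dehydrogenase subunit 4. It went from 9.65 to -3.13 without DR_438, the library with nearly all of its counts. Its values without 1 library ran from -3.13 to 10.25. In the main fit 62 of the 76 were called. Up to 47 of these 62 (without DR_438) lost their call when a library was left out, and 4 did without the filter. The same colonies were pooled in both states, but no label says which libraries share them. No paired analysis was therefore run, and the SE and p-values here ignore that matching. A contig at 1 CPM has 6.47 counts in BR_436, which limits what can be said of low contigs there. Leaving out a raiding library leaves 2, and the loss of calls there goes with fewer samples.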
